A study of Mus musculus with 18 samples.

Results

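The 5 RNA-seq libraries labelled Snf2h ko fall into 2 sets by their replicate numbers, replicates 1 and 2 (the pair) and replicates 3 to 5 (the trio), and the trio was compared with the pair. All 5 carry the same genotype, so no difference given here is a difference of genotype. They are 5 of the 18 libraries of the series, and 14135 genes had enough counts in them to be tested. The libraries come from mouse embryonic stem (ES) cells of strain 129S6/SvEvTac in which Snf2h, the gene with the official symbol Smarca5, is knocked out. The cells were kept in serum and leukemia inhibitory factor (LIF), a cytokine that holds ES cells undifferentiated. Per the labels the ko line spent its first passages after thawing on mouse embryonic fibroblast (MEF) feeder cells, whereas wild-type cells of the same strain were kept on gelatin. The other libraries are 8 of wild type, 3 of ko cells with wild-type Snf2h put back and 2 of ko cells with an ATPase mutant put back, and of these the wild type alone is used below. The labels speak of biological replicates without saying which libraries came from separate cultures, whether the ko is 1 clone, or whether the sets differed in date, passage or feeder exposure. The difference between the sets has therefore no replicate of its own, any batch and the set cannot be told apart, and the p-values below measure only the spread within the sets.

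SNF2H is the motor of the ISWI chromatin remodelers, complexes that slide and space nucleosomes and so open the sites where factors such as CTCF bind. ES cells in serum and LIF are not uniform: most express the pluripotency network built on Oct4, Sox2 and Nanog, a few shift towards primitive endoderm, the extraembryonic layer that forms the yolk sac and secretes basement membrane, and rare ones pass through a state that resembles the 2-cell embryo. In bulk RNA, fewer cells of a type and less RNA per cell cannot be told apart.

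The pair held 24.3 and 24.9 M counts and the trio 16.9 to 18.5 M. Levels are given as CPM, a gene's count divided by the total of its library in M, with TMM scaling for the make-up of each library. Libraries of 1 set were close to each other: the median gene differed by 0.0743 on the log2 scale inside the pair and by 0.0793 to 0.0810 inside the trio, against 0.264 to 0.283 between a library of the pair and one of the trio. Replicate 1 held counts in 18195 genes and replicate 2 in 17311. The 1480 genes with counts in replicate 1 and none in replicate 2 had a median of 1 count, and 0 of them were among the tested genes.

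Below, a difference is the log2 ratio of the trio's level to the pair's in edgeR's fit, given with its standard error (SE). A gene is called higher or lower at a Benjamini-Hochberg adjusted p under 0.05 in edgeR's quasi-likelihood test. In the trio 4430 of the 14135 genes (31.3%) were called higher and 4477 (31.7%) lower. At 2-fold or more the counts were uneven, with 269 genes (1.90%) higher and 792 (5.60%) lower. The 3 libraries of the trio all lay above both of the pair for 39.4% of the genes and all below for 34.3%. These shares are the background for the counts in each gene group, and the median difference over all tested genes was 0.00.

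Smarca5 itself, the targeted gene, stood at 9.49 and 8.82 CPM in the pair and 10.1, 9.69 and 8.72 CPM in the trio. The sets overlapped, and both lay far below the wild-type libraries, whose set means ran from 151.9 to 206.7 CPM. Which exons the knockout removes is not given in the sources used here, so this level alone does not check the deletion. Smarca1, the other ISWI ATPase of mammals, stood at 16.1 and 15.6 CPM in the pair and 18.9, 20.3 and 20.1 CPM in the trio, a small rise of 0.29 ± 0.07, adjusted p = 9.42e-04.

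The labelled cell type was checked on its markers. The summed level of 5 ES cell markers (Pou5f1, Sox2, Nanog, Zfp42 and Esrrb) was 2960.0 and 2940.0 CPM in the pair and 4170.0 to 4280.0 CPM in the trio, against 3210.0 to 3630.0 CPM in the wild-type libraries. Of 10 defining markers of feeder fibroblasts, 6 reached a mean of 1 CPM in the pair and 6 in the trio. Postn did so only in the pair and Col3a1 only in the trio. The summed level of all 10 was 52.1 and 52.4 CPM in the pair and 55.3 to 61.7 CPM in the trio, against 19.9 to 41.3 CPM in the wild type. Lum had 0 counts in every ko library, which allows up to 0.061 CPM in the pair and 0.057 CPM in the trio for counting error only, and Dcn stayed under 0.08 CPM. Col1a1, a fibrillar collagen chain of fibroblasts, was higher in the trio, at 12.2 and 10.8 CPM in the pair and 17.3, 19.8 and 18.8 CPM in the trio. Postn, another fibroblast product, was lower, at 2.36 and 2.32 CPM in the pair and 0.508, 1.06 and 0.697 CPM in the trio. Over the full feeder list of 26 genes, 4 of 20 tested were higher and 6 lower, and the summed level was 163.0 to 178.0 CPM across all 5 libraries. Feeder markers thus moved little as a group while the matrix genes described next fell, and the part of feeder cells in any difference was not tested.

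The lowest medians of the 46 gene lists described belonged to the endoderm program. Of 12 tested transcription factors of primitive and definitive endoderm, 10 were lower in the trio, 7 of them by 2-fold or more, 1 was higher and the median difference was -1.10. Gata6, which drives the primitive endoderm fate, stood at 51.9 and 50.8 CPM in the pair and 14.96, 13.9 and 12.1 CPM in the trio (-1.93 ± 0.07, adjusted p = 3.25e-22). Gata4, its partner, stood at 181 and 197 CPM in the pair and 61.9, 63.5 and 59.4 CPM in the trio (-1.64 ± 0.04, adjusted p = 9.43e-26). Neither factor overlapped between the sets, and the drop was about as large for Sox17, an HMG-box factor of the same lineage. Sox17 stood at 46.1 and 40.5 CPM in the pair and 11.2, 10.6 and 11.6 CPM in the trio (-1.99 ± 0.07, adjusted p = 2.65e-21). Foxa2, a forkhead factor of definitive and visceral endoderm, fell most, from 19.5 and 18.3 CPM to 3.95, 3.55 and 4.18 CPM, a difference of -2.31 ± 0.10, adjusted p = 1.98e-19. Foxq1 (-1.82 ± 0.07), Cited1 (-1.18 ± 0.13) and Foxa3 (-0.96 ± 0.16) were lower as well.

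The products of visceral and parietal endoderm followed: 23 of 29 tested genes were lower, 18 by 2-fold or more, 2 were higher, and the median was -1.28. Pdgfra, the PDGF receptor that marks primitive endoderm, stood at 72.2 and 76.2 CPM in the pair and 17.2, 18.6 and 16.7 CPM in the trio (-2.11 ± 0.06, adjusted p = 3.29e-25). Srgn, the core protein of a secreted proteoglycan, stood at 141 and 146 CPM in the pair and 43.4, 47.5 and 43.2 CPM in the trio. Sparc, a collagen-binding matrix protein made in bulk by parietal endoderm, stood at 2774 and 3044 CPM in the pair and 1063, 1086 and 1072 CPM in the trio (-1.47 ± 0.03, adjusted p = 1.77e-27). In all 3 genes both libraries of the pair lay far above all 3 of the trio. Pth1r, the receptor through which parietal endoderm answers parathyroid-hormone-related protein, differed by -1.60 ± 0.08. Bmp2, a secreted signal of visceral endoderm, differed by -2.0 ± 0.15. Fxyd3 (-2.52 ± 0.27), S100g (-2.29 ± 0.22) and the protease gene Ctsh (-1.68 ± 0.12) were also lower. The 8 markers of extraembryonic endoderm used to check cell types summed to 3550.0 and 3820.0 CPM in the pair and 917.0 to 966.0 CPM in the trio, against 604.0 to 1640.0 CPM in the wild-type libraries, and Lama1 made up most of that sum.

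Basement membrane genes, several of them among the most abundant transcripts of the pair, were lower too. Of 18 tested, 14 were lower and 1 higher (median -0.71). Lama1, the laminin alpha chain of the embryonic basement membrane, stood at 3025 and 3276 CPM in the pair and 745, 708 and 710.5 CPM in the trio (-2.16 ± 0.03, adjusted p = 1.36e-31). Lamb1, its beta chain partner, stood at 2257 and 2463 CPM in the pair and 565, 543 and 529 CPM in the trio (-2.14 ± 0.03, adjusted p = 3.17e-30). Lamc1, the gamma chain, fell less, from 4101 and 4258 CPM to 1642, 1604 and 1563 CPM (-1.41 ± 0.03, adjusted p = 2.01e-28). Per kilobase of exon, the mean levels in the pair were 548 RPKM for Lamc1, 326 for Lama1 and 246 for Lamb1, and in the trio 210.3, 74.7 and 56.96 RPKM. Of the 3 chains of 1 laminin trimer, Lama1 and Lamb1 thus changed by nearly the same amount and Lamc1 by less. Col4a1 and Col4a2, which encode the type IV collagen chains from neighboring genes, changed by nearly the same amount (-2.02 ± 0.03 and -2.01 ± 0.03). Their libraries read 2967 and 3191 CPM against 788, 771 and 761 CPM for Col4a1, and 1532 and 1687 CPM against 415, 404 and 404 CPM for Col4a2. The single gene of the list that rose was Col18a1, a basement membrane collagen of epithelia, at 157 and 162 CPM in the pair and 289, 295 and 287 CPM in the trio (0.84 ± 0.04, adjusted p = 6.10e-20). Lama4, a laminin alpha chain of vessels, differed by -1.78 ± 0.13.

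**Figure D1:**
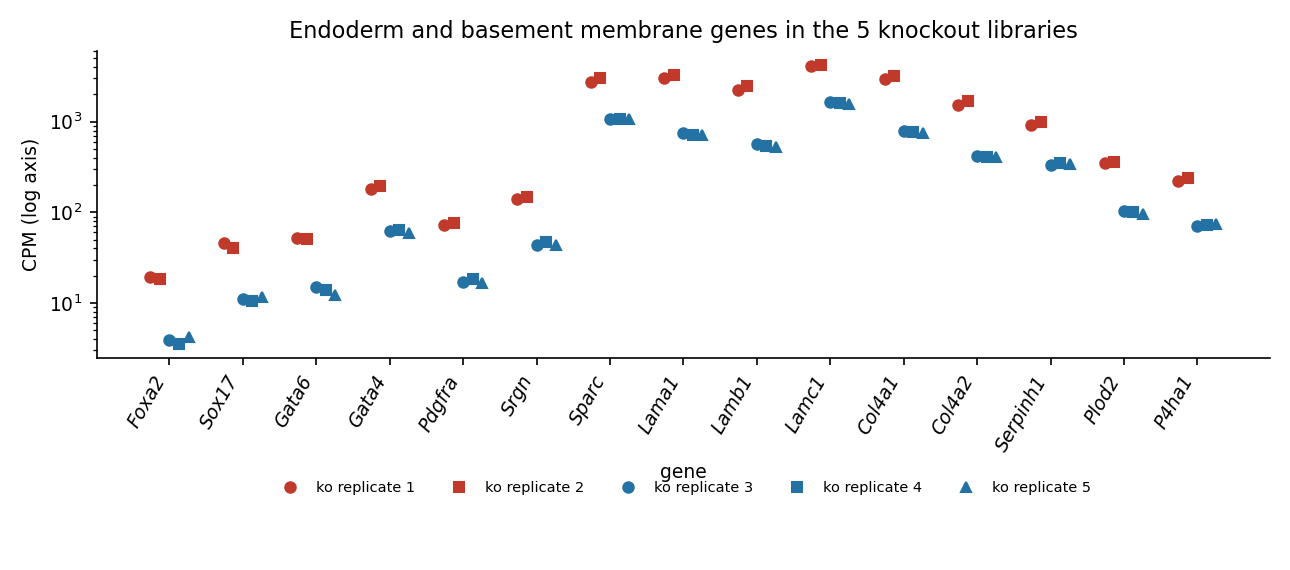
CPM on a log axis for 15 genes of endoderm and basement membrane, 1 point per ko library (pair in red, trio in blue). For every gene shown both libraries of the pair lie above all 3 of the trio, with Lama1 falling from 3025 and 3276 CPM to at most 745 CPM.

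The enzymes that build collagen moved with it. Of 20 genes of collagen and matrix processing, 14 were lower, 7 by 2-fold or more, and 3 higher (median -0.57). Serpinh1, the collagen chaperone of the endoplasmic reticulum, stood at 914 and 989.8 CPM in the pair and 330.1, 348 and 342 CPM in the trio (-1.51 ± 0.03, adjusted p = 2.29e-27). P4ha1, a catalytic subunit of prolyl 4-hydroxylase, stood at 223 and 237 CPM in the pair and 71.4, 72.8 and 73.6 CPM in the trio (-1.69 ± 0.04, adjusted p = 3.58e-27). Plod2, a lysyl hydroxylase, stood at 352 and 361 CPM in the pair and 103, 101 and 96.7 CPM in the trio (-1.86 ± 0.04, adjusted p = 2.70e-29). All 3 were clear of overlap. P4ha2 (-1.90 ± 0.04), the shared beta subunit gene P4hb (-0.78 ± 0.03), the procollagen protease gene Bmp1 (-1.28 ± 0.06) and the metalloprotease inhibitor gene Timp3 (-1.87 ± 0.06) were lower too. Loxl2, a lysyl oxidase that crosslinks type IV collagen, stood at 219.9 and 245 CPM in the pair and 47.1, 45.6 and 45.2 CPM in the trio (-2.37 ± 0.04, adjusted p = 2.70e-29). Interstitial collagens and matrix glycoproteins as a whole were mixed, with 13 of 27 lower and 5 higher.

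Lysosomal genes were lower almost without exception: 26 of 28, with 2 higher, a median of -0.52 and 3 by 2-fold or more. Ctsl, a cysteine protease that parietal endoderm also makes in quantity, stood at 1317 and 1420.0 CPM in the pair and 571, 583 and 570.0 CPM in the trio (-1.28 ± 0.03, adjusted p = 3.17e-26). Lamp2, a lysosomal membrane protein, differed by -1.02 ± 0.05, the cholesterol exporter gene Npc1 by -0.99 ± 0.05, the hexosaminidase gene Hexa by -0.94 ± 0.04, the sialidase gene Neu1 by -0.90 ± 0.05 and Ctsz by -1.08 ± 0.05. Ctsd, the aspartic protease of the lysosome, stood at 427 and 455 CPM in the pair and 243, 249 and 258 CPM in the trio (-0.85 ± 0.03, adjusted p = 3.17e-20). Ctsa, a carboxypeptidase that protects sialidase, stood at 123 and 130.1 CPM in the pair and 71.8, 73.4 and 77.2 CPM in the trio (-0.80 ± 0.04, adjusted p = 3.28e-17).

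Because these genes moved together, the 250 bases before their RefSeq start sites (GRCm38.p6) were searched on both strands for TCACGTGA, the palindromic core of the CLEAR element that the lysosome regulator TFEB is known to bind. It was found for 5 of the 21 lysosome genes with such a window, and for 1.71% of the 11114 tested genes with one (0.785% of all 32851 windows). The element is known from lysosomal genes, so its share in this list is no result of these data. The 5 genes that held it were all called lower (median -0.75), as were 14 of the 16 without it (median -0.47). The windows of Ctsd (chr7:142387828-142388077, minus strand) and Ctsa (chr2:164833523-164833772, plus strand) are shown with the match in capitals, 5′ to 3′ along the gene. A match describes these letters and is not evidence of binding, and its part in the difference between the sets was not tested.
Ctsd: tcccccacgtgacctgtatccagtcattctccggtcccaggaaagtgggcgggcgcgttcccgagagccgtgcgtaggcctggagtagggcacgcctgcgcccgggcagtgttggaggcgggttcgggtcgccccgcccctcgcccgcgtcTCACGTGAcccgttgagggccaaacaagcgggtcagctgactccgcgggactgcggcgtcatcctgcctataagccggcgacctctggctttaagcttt
Ctsa: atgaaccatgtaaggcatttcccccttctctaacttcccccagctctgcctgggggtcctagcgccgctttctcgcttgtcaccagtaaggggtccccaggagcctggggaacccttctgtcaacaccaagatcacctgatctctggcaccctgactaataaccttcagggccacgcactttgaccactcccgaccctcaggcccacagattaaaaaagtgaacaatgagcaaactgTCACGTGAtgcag

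In Ctsd the match spans bases -99 to -92 from the start site, and in Ctsa -13 to -6. The unfolded protein response, the program that expands the folding capacity of the endoplasmic reticulum, showed the same direction with smaller sizes: 15 of 22 genes lower, 2 higher, 0 by 2-fold or more, and a median of -0.21. The chaperone gene Hsp90b1 stood at 1371 and 1403 CPM in the pair and 1127, 1134 and 1152 CPM in the trio (-0.31 ± 0.03, adjusted p = 4.78e-11), with no overlap. Edem1 (-0.66 ± 0.04), Dnajc3 (-0.58 ± 0.04), Canx (-0.48 ± 0.03) and Pdia6 (-0.39 ± 0.03), which serve disposal and folding of secreted proteins, were lower too. The endoplasmic reticulum stress response element, searched on both strands as CCAAT and CCACG with any 9 bases between them, lay before 9 of the 19 list genes with a window against 0.144% of tested genes (0.113% of all windows), and many genes of this list are known for that element. Of the 9, 7 were lower (median -0.26), and of the other 10, 5 were (median -0.12). The Hsp90b1 window (chr10:86705445-86705694, minus strand) holds it at 2 places, in capitals, once on each strand.
Hsp90b1: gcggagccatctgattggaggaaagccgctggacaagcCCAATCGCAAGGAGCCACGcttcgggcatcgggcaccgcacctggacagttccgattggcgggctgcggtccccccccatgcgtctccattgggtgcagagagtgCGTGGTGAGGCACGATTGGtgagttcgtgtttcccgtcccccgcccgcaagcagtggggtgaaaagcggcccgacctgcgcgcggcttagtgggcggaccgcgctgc

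Epithelial genes were lower in the trio. Of 19 trophectoderm and simple keratin genes 13 were lower, 8 by 2-fold or more, and 3 higher (median -0.66). However, 2 of the 19 passed the filter on low counts only through the pair. Among the 17 that passed in both sets 11 were lower and 3 higher (median -0.58). Krt18, a filament keratin of simple epithelia including endoderm, stood at 185 and 203 CPM in the pair and 57.2, 53.9 and 57.9 CPM in the trio (-1.81 ± 0.04, adjusted p = 2.15e-26). Krt8, its partner, stood at 174 and 184 CPM in the pair and 76.7, 78.2 and 79.4 CPM in the trio (-1.23 ± 0.04, adjusted p = 4.62e-23). Krt19 (-1.02 ± 0.07) and Krt7 (-1.79 ± 0.28) fell as well. Gata3, a trophectoderm factor, was near the limit of measurement in the trio, at 1.30 and 1.20 CPM in the pair and 0.226, 0.212 and 0.174 CPM in the trio. It passed the filter only through the pair, so a lower level in the trio was a condition of its being tested. Peg10, an imprinted gene of placenta, differed by -1.01 ± 0.03. Among genes of cadherins, junctions and the epithelial to mesenchymal transition 21 of 25 were lower and 3 higher (median -0.42). The falls include the epithelial splicing factor gene Esrp1 (-1.17 ± 0.06), the tight junction genes Cldn7 (-1.03 ± 0.06) and Ocln (-0.86 ± 0.08) and the desmosome gene Dsp (-0.78 ± 0.05). The mesenchymal factor gene Twist1 was lower too, at 4.69 and 4.21 CPM in the pair and 1.98, 2.43 and 2.79 CPM in the trio. Snai1 and Zeb2, factor genes of the same list, were also at a lower level in the trio. Vim, the mesenchymal filament protein, went the other way, at 116 and 123 CPM in the pair and 204, 204 and 210.4 CPM in the trio (0.76 ± 0.04, adjusted p = 8.10e-18).

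Several receptors and surface proteins best known from vessels and blood were also lower, namely 7 of 9 tested in that list (median -0.45). Flt1, a VEGF receptor, stood at 71.2 and 77.8 CPM in the pair and 10.4, 10.96 and 11.4 CPM in the trio (-2.80 ± 0.06, adjusted p = 2.24e-27). Tek, the angiopoietin receptor, stood at 13.4 and 13.2 CPM in the pair and 4.46, 4.61 and 4.18 CPM in the trio (-1.62 ± 0.10, adjusted p = 5.47e-15). Cdh5, the endothelial cadherin, differed by -1.55 ± 0.15 and Runx1, a blood factor, by -1.37 ± 0.10. Tal1, which opens the blood and vessel program, was the exception, at 3.23 and 4.10 CPM against 6.27, 5.82 and 5.17 CPM (0.62 ± 0.14, adjusted p = 2.68e-04). F3, tissue factor, the starter of clotting, stood at 219 and 230.4 CPM in the pair and 33.4, 36.2 and 35.1 CPM in the trio (-2.71 ± 0.04, adjusted p = 2.15e-31), and Ptprb, a phosphatase of vessels, differed by -2.80 ± 0.16.

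The pluripotency network was higher in the trio. Of 29 naive and core pluripotency genes 23 were higher, 4 lower and the median was 0.36, although 0 reached 2-fold. Pou5f1, which encodes Oct4, stood at 1201 and 1257 CPM in the pair and 1722, 1715 and 1810.3 CPM in the trio (0.48 ± 0.03, adjusted p = 9.23e-15). Nanog stood at 464 and 446 CPM in the pair and 717, 753 and 729 CPM in the trio (0.66 ± 0.03, adjusted p = 7.44e-18). Esrrb, a nuclear receptor of the naive network, stood at 614 and 608 CPM in the pair and 873, 876 and 876 CPM in the trio (0.49 ± 0.03, adjusted p = 2.39e-15). None of these 3 overlapped, and Zfp42 (0.47 ± 0.03) and Sox2 (0.33 ± 0.08) rose by less. The largest rises of the group were Gbx2 (0.93 ± 0.05) and Dppa2 (0.93 ± 0.06), then Gdf3 (0.84 ± 0.05), Prdm14 (0.76 ± 0.06), Tcl1 (0.67 ± 0.04) and Jam2 (0.50 ± 0.03). Formative and primed genes were split, with 9 of 17 higher and 4 lower. Foxd3, a forkhead factor needed to keep ES cells, stood at 13 and 9.86 CPM in the pair and 29.2, 33.1 and 30.5 CPM in the trio (1.41 ± 0.09, adjusted p = 1.93e-13), and Dnmt3a, a de novo DNA methyltransferase, at 55.2 and 58.8 CPM in the pair and 90.3, 85.6 and 87.7 CPM in the trio (0.60 ± 0.05, adjusted p = 4.49e-13).

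Signaling genes around pluripotency split by ligand. Nodal, a TGF-beta family ligand of the epiblast, was higher (0.85 ± 0.06, adjusted p = 1.68e-14), as was Lefty2, the feedback inhibitor it induces, at 11.1 and 10.2 CPM in the pair and 23.9, 22.9 and 23.1 CPM in the trio (1.10 ± 0.08, adjusted p = 6.46e-14). Over the Nodal, BMP and TGF-beta list 13 of 29 genes were higher and 12 lower. Of 22 FGF and ERK pathway genes 13 were higher and 5 lower. Fgf17 (1.30 ± 0.06) and Fgf15 (0.80 ± 0.07), FGF ligands, rose, while the ERK phosphatase gene Dusp4 (-1.07 ± 0.06) and the receptor gene Fgfr4 (-0.85 ± 0.08) fell. Lif, the gene of the cytokine that is also supplied in the medium, fell from 16.5 and 17.5 CPM to 5.70, 6.14 and 5.58 CPM (-1.58 ± 0.09, adjusted p = 6.97e-16). The LIF response genes Socs3 (0.42 ± 0.03), Klf4 (0.41 ± 0.03) and Bcl3 (0.81 ± 0.05) rose modestly, and 9 of 19 genes of the LIF and STAT3 list were higher and 4 lower. Wnt4 (-1.76 ± 0.11) and Wnt11 (-1.60 ± 0.12), 2 ligands, and Rnf43 (-2.28 ± 0.22), a feedback inhibitor of Wnt receptors, were lower, whereas Notum, a secreted Wnt inhibitor, was higher at 4.45 and 3.87 CPM in the pair and 12.99, 13.7 and 14.3 CPM in the trio (1.69 ± 0.11, adjusted p = 5.38e-15).

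Genes of the 2-cell-like list were near the limit of measurement. Of the 21 with a row of counts, 13 were too low to be tested, and 7 of the 8 tested passed the filter on low counts (about 0.529 CPM in 2 libraries) only through the trio, so that a higher level there was a condition of being tested and their number is no result. Zscan4d, a member of the Zscan4 family that marks the 2-cell-like state and acts at telomeres, stood at 0.0394 and 0.155 CPM in the pair and 1.75, 1.06 and 1.45 CPM in the trio (3.75 ± 0.47, adjusted p = 2.60e-08). Zscan4c stood at 0.394 and 0.425 CPM in the pair and 2.15, 1.75 and 2.09 CPM in the trio (2.23 ± 0.29, adjusted p = 6.01e-08). Gm4340, a predicted gene of the same list and the only one that passed the filter in both sets, stood at 1.10 and 0.735 CPM in the pair and 5.14, 4.29 and 4.42 CPM in the trio (2.29 ± 0.20, adjusted p = 1.46e-11). No library of the pair reached the lowest of the trio in these genes, but even in the trio the Zscan4 genes stayed at or below 2.2 CPM. Zscan4a (3.20 ± 0.37), Zscan4b (2.98 ± 0.38) and Zscan4f (2.14 ± 0.30) cannot be counted as separate observations, since the copies are nearly identical and how shared reads were assigned is not given in the sources used here.

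Early response genes moved in opposite directions. Of 26 immediate early genes 10 were higher and 11 lower. Egr1, a zinc finger factor induced by ERK signaling, stood at 16.2 and 15 CPM in the pair and 67.9, 58.9 and 57.7 CPM in the trio (1.95 ± 0.07, adjusted p = 5.88e-20). Fos stood at 5.63 and 5.61 CPM in the pair and 17.3, 18.4 and 18.8 CPM in the trio (1.66 ± 0.09, adjusted p = 1.67e-16), and Myc, the growth regulator, at 23.9 and 25.2 CPM in the pair and 56.2, 53.99 and 50.3 CPM in the trio (1.10 ± 0.06, adjusted p = 4.53e-17). These genes showed a clear gap between the sets, shared by Junb (0.91 ± 0.06) and Fosb (1.22 ± 0.23). Ctgf, a matricellular target of the Hippo effector YAP, stood at 580.3 and 613 CPM in the pair and 119, 131 and 130.2 CPM in the trio (-2.26 ± 0.04, adjusted p = 1.11e-30). Cyr61, another such target, stood at 268 and 276 CPM in the pair and 88.04, 83.1 and 81.5 CPM in the trio (-1.72 ± 0.04, adjusted p = 1.33e-27). Ankrd1, also such a target, stood at 32.8 and 29.4 CPM in the pair and 10.96, 12.4 and 12.8 CPM in the trio (-1.39 ± 0.08, adjusted p = 8.78e-17). Atf3 (-1.22 ± 0.07) and Fosl2 (-1.11 ± 0.09) fell with them. Over YAP targets and actin cytoskeleton genes 22 of 38 were lower, 7 higher and the median was -0.21, with the annexin genes Anxa3 (-1.83 ± 0.07) and Anxa2 (-1.74 ± 0.04) and the focal adhesion gene Zyx (-1.04 ± 0.05) among the falls.

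**Figure D2:**
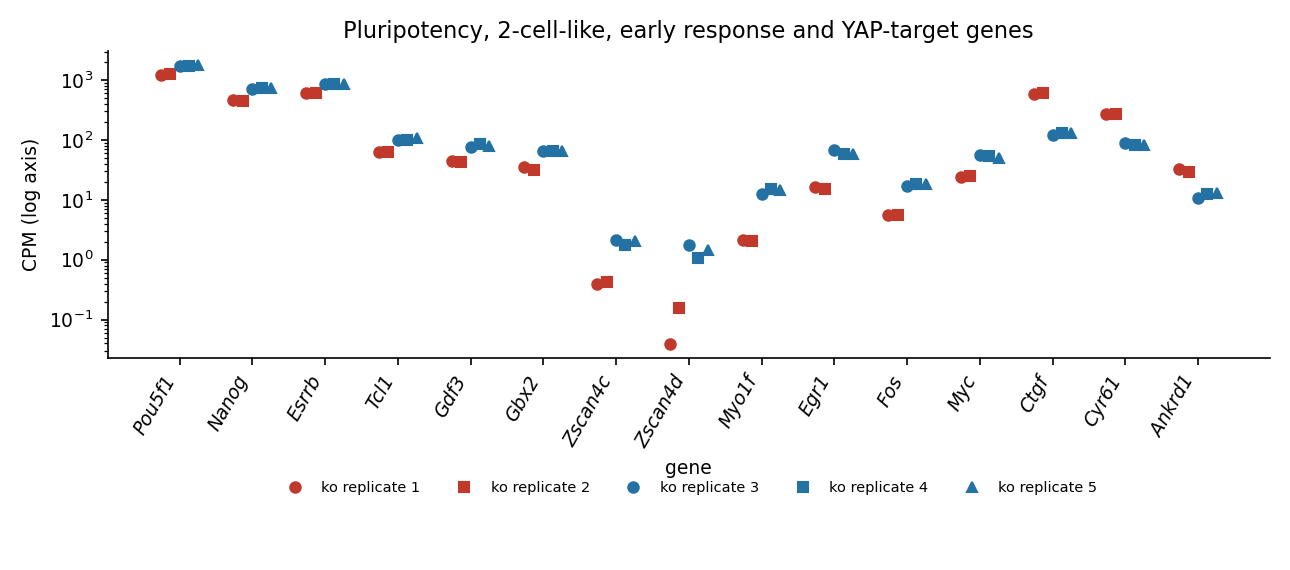
CPM on a log axis for 15 genes, 1 point per ko library (pair in red, trio in blue). Pluripotency, 2-cell-like and early response genes lie higher in the trio, and the YAP targets Ctgf, Cyr61 and Ankrd1 lie lower, with no overlap for any gene shown.

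Genes of glycolysis, hypoxia and the integrated stress response were mostly lower. In glycolysis and hypoxia response 21 of 35 genes were lower and 5 higher (median -0.30). Bnip3, a mitophagy receptor induced by HIF, stood at 50.8 and 46.6 CPM in the pair and 10.9, 11.4 and 10.3 CPM in the trio (-2.19 ± 0.07, adjusted p = 3.11e-23). Ndrg1, another hypoxia gene, stood at 45.02 and 46.98 CPM in the pair and 9.43, 10.3 and 8.77 CPM in the trio (-2.30 ± 0.07, adjusted p = 1.36e-23). Aldoc (-1.16 ± 0.07), a glycolytic aldolase, the oxygen sensor gene Egln3 (-0.90 ± 0.07) and the mTOR inhibitor gene Ddit4 (-0.87 ± 0.04) fell too. Of the amino acid and integrated stress response 17 of 31 were lower and 5 higher, led by Vldlr (-1.57 ± 0.09) and Ddit3 (-1.12 ± 0.08). In 1 fit over all 18 libraries, Egln3 and Ddit4 were no longer called (adjusted p = 0.121 and 0.0625).

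Of 26 p53 targets 18 were lower and 3 higher (median -0.46). Because 1 of them passed the filter on low counts only through the pair, the 25 that passed in both sets are given too. Among these 17 were lower and 3 higher (median -0.37). Cdkn1a, the cell cycle inhibitor p21, stood at 124 and 129.8 CPM in the pair and 66.02, 66.01 and 68.4 CPM in the trio (-0.95 ± 0.04, adjusted p = 1.69e-19). Mdm2, the ligase that degrades p53, stood at 264 and 261 CPM in the pair and 151, 152 and 148 CPM in the trio (-0.83 ± 0.03, adjusted p = 4.57e-20). Polk (-1.22 ± 0.05), a translesion polymerase, and Apaf1 (-0.88 ± 0.04), the scaffold of the apoptosome, followed. Of 25 cholesterol genes 18 were lower and 1 higher (median -0.26), with Insig1 (-0.98 ± 0.04), which restrains SREBP, and Stard4 (-0.79 ± 0.04), a sterol carrier. Fatty acid synthesis gave 10 of 15 lower and 1 higher (median -0.33), including the desaturase gene Scd1 (-0.63 ± 0.04) and Lpin1 (-0.79 ± 0.04).

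Heat shock genes were higher: 15 of 19, with 1 lower and a median of 0.43. Hspa8, the constitutive HSC70 chaperone, stood at 956 and 1011 CPM in the pair and 1971, 1961 and 1987 CPM in the trio (0.98 ± 0.03, adjusted p = 2.84e-23). Hspa1b (1.15 ± 0.08), Hsph1 (0.80 ± 0.04) and Hspb1 (0.61 ± 0.04) rose, and the small heat shock gene Cryab fell (-0.63 ± 0.05). Genes of RNA polymerase I and the nucleolus, which make ribosomes, were higher in 32 of 36 and lower in 0 (median 0.27), for example Nolc1 at 232 and 247 CPM in the pair and 379.9, 356 and 371 CPM in the trio (0.59 ± 0.04, adjusted p = 1.26e-15), with Polr1b (0.59 ± 0.04) and Bop1 (0.53 ± 0.04). DNA replication and licensing genes were higher in 32 of 40 and lower in 0 (median 0.25). Mcm5, a subunit of the replicative helicase, stood at 339 and 351 CPM in the pair and 554, 538 and 551 CPM in the trio (0.64 ± 0.03, adjusted p = 1.20e-17), and Mcm2 (0.53 ± 0.03), Tyms (0.74 ± 0.05) and Gins3 (0.71 ± 0.07) rose with it. Nuclear oxidative phosphorylation genes were higher in 47 of 74 and lower in 2 (median 0.14), led by Uqcrh (0.52 ± 0.04) and Uqcr11 (0.48 ± 0.05). Cytoplasmic ribosomal protein genes gave 27 of 79 higher and 13 lower with a median of 0.01, and mitosis genes 12 of 30 higher and 9 lower with a median of 0.06. The sets also shifted with transcript length, as described below, by amounts of the order of the smaller of these medians, and the part of that shift in them was not tested.

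Of 44 replication-dependent histone genes 14 were higher and 0 lower (median 0.49), and of the 28 that passed the filter in both sets 11 and 0, for example Hist1h2bc at 3.23 and 3.94 CPM in the pair and 6.61, 9.53 and 7.73 CPM in the trio (1.12 ± 0.14, adjusted p = 5.75e-08) and Hist3h2a at 2.76 and 2.40 CPM in the pair and 4.01, 5.08 and 5.06 CPM in the trio (0.84 ± 0.16, adjusted p = 2.49e-05). Most histone transcripts lack a poly(A) tail, the libraries were made from polyadenylated RNA, and near-identical copies share reads, so these levels are uncertain. Among clustered protocadherins 22 of 36 were higher and 11 lower, but the counts of the gamma genes were nearly equal to one another, as were those of the alpha genes, which share their last exons. Each cluster is thus about 1 measurement, higher for gamma and lower for alpha.

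Imprinted genes were among the largest single changes. H19, a noncoding RNA expressed from the maternal allele, stood at 18.9 and 21.4 CPM in the pair and 2.09, 2.2 and 3.49 CPM in the trio (-3.00 ± 0.13, adjusted p = 3.95e-19). Igf2, the growth factor gene beside it that is expressed from the paternal allele, stood at 88.8 and 101 CPM in the pair and 25.5, 26.1 and 26.1 CPM in the trio (-1.90 ± 0.05, adjusted p = 2.03e-24). H19 was far below the wild-type set means of 99.3 to 168 CPM in both sets, whereas Igf2 in the pair was above the wild-type set means of 21.8 to 26.2 CPM and in the trio was close to them. Igf2r, the receptor that clears IGF2, was lower (-0.96 ± 0.04), and Mest was higher (0.79 ± 0.05). Over the list 9 of 32 genes were higher and 14 lower. Germline genes were mixed (7 of 24 higher, 10 lower), with Rhox5 (-0.88 ± 0.04) and the meiotic cohesin gene Smc1b (-1.45 ± 0.08) lower and Stra8 (0.86 ± 0.08) and Dazl (1.05 ± 0.15) higher.

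Of the chromatin remodelers the largest difference was a fall. Smarca2, an alternative ATPase (BRM) of the SWI/SNF remodelers, stood at 35.1 and 37.6 CPM in the pair and 8.75, 8.999 and 8.54 CPM in the trio (-2.08 ± 0.07, adjusted p = 6.63e-22). Over 25 SWI/SNF genes 13 were higher and 4 lower, with Smarcd3 among the higher (0.69 ± 0.08). Of 13 ISWI partners 4 were higher and 2 lower (median 0.04), with Rbbp7 lower (-0.36 ± 0.03). Smarcad1, a remodeler of another family, was higher (0.58 ± 0.04). Ctcf stood at 142 and 143 CPM in the pair and 194, 198 and 177 CPM in the trio (0.38 ± 0.04, adjusted p = 9.69e-10), and CTCF and cohesin genes gave 7 of 20 higher and 9 lower.

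Some of the largest falls lie outside the groups above. Vnn1, a membrane pantetheinase, fell most of the genes at 5 CPM or more in the higher set, at 10.4 and 11.8 CPM in the pair and 0.960, 1.01 and 0.697 CPM in the trio (-3.66 ± 0.16, adjusted p = 2.11e-19). Sprr2a1, a cornified envelope gene of squamous epithelium with close copies, stood at 11.3 and 13.3 CPM in the pair and 1.19, 1.59 and 1.45 CPM in the trio (-3.14 ± 0.15, adjusted p = 7.97e-19). Spock1, a matrix proteoglycan, stood at 22.8 and 25.8 CPM in the pair and 3.05, 3.12 and 2.32 CPM in the trio (-3.12 ± 0.11, adjusted p = 3.72e-22). In each the trio was several times lower without overlap, and this held too for Ugt2b34 (-3.07 ± 0.21), a glucuronosyltransferase, Nrcam (-3.03 ± 0.14), a neural adhesion molecule, and Ptger3 (-2.87 ± 0.20), a prostaglandin receptor. Bhlhe41 (-2.83 ± 0.13), a clock-linked repressor, the axon guidance gene Sema6a (-2.67 ± 0.13), Drp2 (-2.66 ± 0.11) and the muscle genes Mybpc3 (-2.65 ± 0.10) and Myl3 (-2.76 ± 0.21) complete the 15 largest falls among genes at that level with H19, Flt1, F3 and Ptprb.

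The largest rises were smaller. Myo1f, an unconventional myosin best known from immune cells, stood at 2.13 and 2.09 CPM in the pair and 12.8, 15.5 and 14.4 CPM in the trio (2.72 ± 0.13, adjusted p = 1.79e-18). Arl14epl stood at 2.32 and 2.94 CPM in the pair and 13.6, 14.3 and 11.8 CPM in the trio (2.30 ± 0.13, adjusted p = 1.15e-16). Dusp27, an atypical phosphatase-like gene, stood at 14.7 and 15.2 CPM in the pair and 56.02, 55.6 and 55.1 CPM in the trio (1.87 ± 0.06, adjusted p = 5.56e-23). Tuba3b (2.07 ± 0.14) and Tuba3a (1.81 ± 0.07), testis alpha tubulins that are near-identical and may share reads, Msc (2.06 ± 0.11), a basic helix-loop-helix repressor, Tex13b (2.05 ± 0.09), Agap2 (1.73 ± 0.17), Lrrn2 (1.69 ± 0.15), Cpsf4l (1.48 ± 0.15), the small nucleolar RNA gene Snord47 (1.47 ± 0.14) and She (1.46 ± 0.10) were also higher. With Egr1, Notum and Fos they make up the 15 largest rises among genes at 5 CPM or more in the higher set, and some genes at lower levels, the Zscan4 copies among them, had larger differences. Neural genes went both ways. Those that rose include Pax2 from a low level (2.31 ± 0.27), Pax6 at 3.11 and 3.56 CPM in the pair and 7.96, 7.46 and 8.89 CPM in the trio (1.25 ± 0.13, adjusted p = 4.94e-10), and Tubb3, the neuronal beta tubulin, at 28.04 and 26.2 CPM in the pair and 75.4, 71.4 and 76.9 CPM in the trio (1.43 ± 0.05, adjusted p = 2.91e-21). Map2, a microtubule protein of neurons (-0.74 ± 0.09), Zic1 (-1.23 ± 0.35) and En1 (-1.11 ± 0.33), factors of the neural plate and midbrain, fell, though Zic1 was no longer called without replicate 2 (-0.85) nor En1 by DESeq2. Over the neuroectoderm list 7 of 14 genes were higher and 5 lower, and of the 10 that passed the filter in both sets 5 and 3. In the test against wild type described below, 6 of the 14 were higher and 4 lower (median 0.29). Interferon genes had no common direction (6 of 18 higher, 7 lower), with Oasl2 (-2.03 ± 0.18) and B2m (-1.22 ± 0.07), the light chain of MHC class I, lower and Irf1 (1.13 ± 0.08) higher.

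The remaining lists were mixed or small. Of 22 tested genes of primitive streak and mesoderm 7 were higher and 6 lower, with Msx2 (-1.33 ± 0.13) and Hand1 (-1.32 ± 0.28), a factor of extraembryonic mesoderm, among the falls. However, 5 of the 22 passed the filter on low counts only through the trio. Among the 16 that passed in both sets 4 were higher and 6 lower (median -0.30). Of 14 Hox genes 1 was higher and 5 lower, for example Hoxb4 (-1.37 ± 0.35) and Hoxd8 (-1.33 ± 0.35), but 6 passed the filter only through the pair, and of the 7 that passed in both sets 1 was higher and 2 lower. Of 28 Wnt genes 11 were higher and 9 lower, but 3 passed the filter only through the trio and 1 only through the pair. Among the 24 that passed in both sets 9 were higher and 9 lower. The cell cycle gene Ccnd1, a Wnt target, differed by 0.74 ± 0.04. The oxidative stress and metal list gave 9 of 18 higher and 6 lower, with the quinone reductase gene Nqo1 at 0.69 ± 0.06 and the metallothionein gene Mt2 at 0.40 ± 0.04. Polycomb and DNA methylation genes gave 15 of 30 higher and 5 lower, among them Cbx2 (0.67 ± 0.06), a subunit of the canonical Polycomb complex, and Dnmt3l (-0.53 ± 0.04), the cofactor of the de novo methyltransferases. Neuronal genes bound by the repressor REST gave 5 of 20 higher and 3 lower, and other remodeling ATPases 6 of 24 higher and 10 lower.

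Genes on the Y chromosome formed a group of their own, chosen after their values were seen. All 8 tested were lower in the trio, and the medians of the other chromosomes lay between -0.10 (chromosome 1) and 0.12 (chromosome 8). However, 5 of the 8, Ddx3y and Uty among them, passed the filter on low counts only through the pair. For those 5 a lower level in the trio was a condition of being tested. The 3 that passed in both sets were Eif2s3y, Rbmy and the predicted gene Gm21708. Eif2s3y, a translation factor gene expressed in all male cells, stood at 5.51 and 5.26 CPM in the pair and 0.960, 0.741 and 1.39 CPM in the trio (-2.42 ± 0.19, adjusted p = 8.74e-13). In the 8 wild-type libraries it stood between 59.8 and 74.9 CPM, so the mean of the pair was 7.26% and that of the trio 1.39% of the mean of wild-type replicates 1 and 2. Ddx3y, an RNA helicase gene, stood at 1.42 and 1.66 CPM in the pair and 0.395, 0.423 and 0.232 CPM in the trio (-2.14 ± 0.32, adjusted p = 8.78e-07), or 3.10% and 0.704% of the same wild-type mean. Uty, a histone demethylase gene, stood at 0.709 and 0.735 CPM in the pair and 0.565, 0.106 and 0.0581 CPM in the trio (-1.58 ± 0.49, adjusted p = 0.00595); the sets did not overlap, but replicate 3 was close to the pair. Without replicate 4 it was no longer called (adjusted p = 0.058), nor was it by DESeq2 (adjusted p = 0.0602). Rbmy, a testis RNA-binding gene with many copies that may share reads, differed from these 3 in its level, at 6.22 and 5.84 CPM in the pair and 1.13, 0.900 and 1.39 CPM in the trio and no more than 0.347 CPM in any wild-type library. The other 4 tested genes are predicted genes, and like Rbmy they were higher in every ko library of the pair than in any wild-type library.

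**Figure D3:**
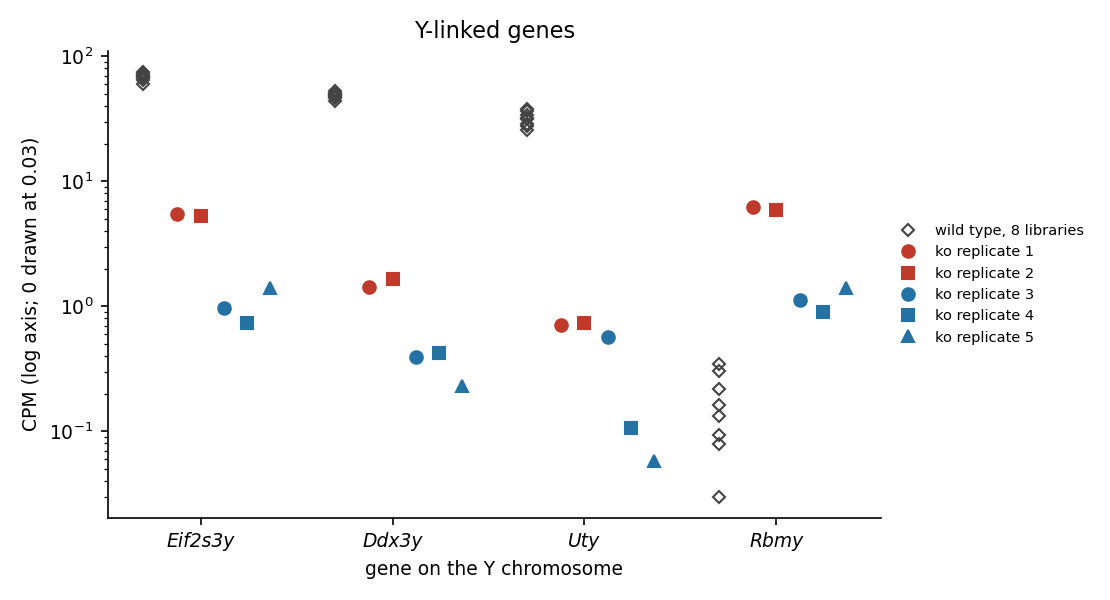
CPM on a log axis for 4 genes of the Y chromosome in the 5 ko libraries (pair in red, trio in blue) and the 8 wild-type libraries (open diamonds, 0 drawn at 0.03). Eif2s3y, Ddx3y and Uty are below every wild-type library in all ko libraries and lowest in the trio, and Rbmy is above every wild-type library in all ko libraries.

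The difference also ran with transcript length. Split into 10 bins by exonic length, the median difference went from 0.10 in the shortest bin, up to 1230.0 bases, to -0.16 in the longest, above 7460.0 bases. In the longest bin 52.6% of genes were called lower and 16.5% higher, and in the shortest 17.0% and 36.8%. Between the wild-type sets described next the same bins went from 0.03 through a highest value of 0.08 in the next bin to -0.11. By level the medians went from -0.14 in the lowest of 10 bins to 0.08 in the highest. The part of length and level in the differences between the sets was not tested.

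**Figure D4:**
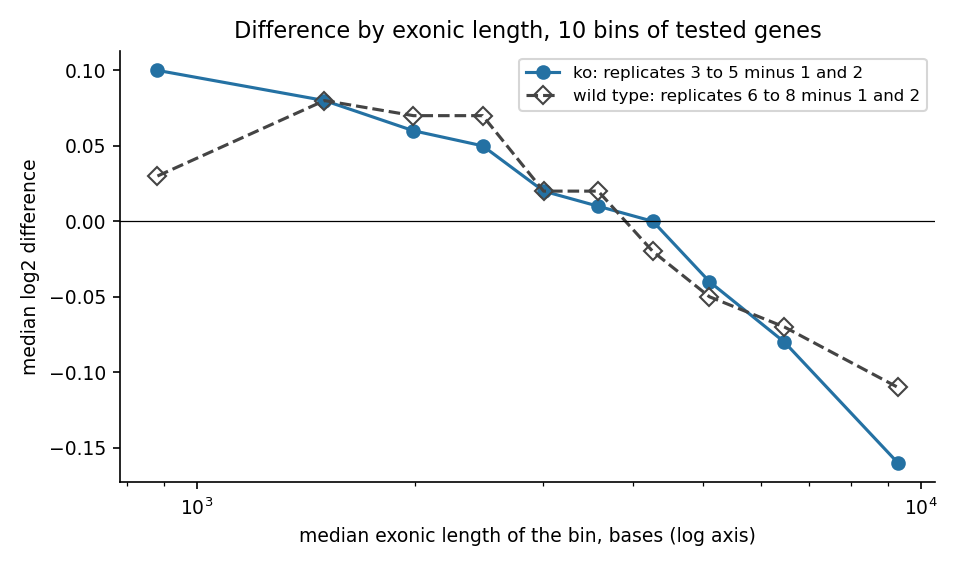
Median log2 difference in 10 bins of tested genes against their median exonic length in bases (log axis), for the ko sets (filled circles) and the wild-type sets (open diamonds). The ko medians decline from 0.10 to -0.16, and the wild-type medians go from 0.03 up to 0.08 in the next bin and then down to -0.11.

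To see whether wild-type libraries vary in the same genes, wild-type replicates 6 to 8 (16.8 to 18.99 M counts) were compared with wild-type replicates 1 and 2 (22.9 and 25.3 M), chosen for totals like those of the ko sets. The labels give no sets of wild type, and the 2 comparisons share no library. Between these wild-type sets 31.0% of 14734 genes were called higher and 30.6% lower in the fit of 10 libraries, which differs from the fit of 5 ko libraries in its genes and its estimate of the spread. Across the 14135 genes tested in both, the ko and wild-type differences had a Pearson correlation of 0.23 and a Spearman correlation of 0.32, given as a description since genes are not independent. Of the 792 genes lower by 2-fold or more between the ko sets, 288 were called lower between the wild-type sets, 168 higher and 336 neither. Of the 269 higher by 2-fold or more, 103 were called higher, 51 lower and 115 neither.

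The test of the difference itself, the ko difference minus the wild-type difference in 1 fit, called 26.1% of genes higher and 22.9% lower. Endoderm transcription factors were lower in this test in 9 of 12 and higher in 0, and their median was -1.10 between the ko sets and 1.59 between the wild-type sets. Endoderm products were lower in 25 of 29 and higher in 2. For Gata6 the ko minus wild-type value was -3.49 ± 0.10 (adjusted p = 3.22e-31), and for Lama1 -2.98 ± 0.05 (adjusted p = 5.60e-36). Naive pluripotency genes were higher in 18 of 29 and lower in 2, for example Nanog at 0.81 ± 0.04 (adjusted p = 1.69e-20).  Other groups had medians of like size in both genotypes: the p53 targets had medians of -0.46 in the ko and -0.41 in the wild type, the nucleolar genes 0.27 and 0.33 and the heat shock genes 0.43 and 0.41. In the test of the difference these lists still held called genes in both directions, 7 higher and 11 lower of 26, 7 and 10 of 36, and 12 and 4 of 19. Their medians in that test were -0.07, -0.01 and 0.22, so most heat shock genes differed between the genotypes despite the like list medians. For Nolc1 the ko minus wild-type value was 0.05 ± 0.05 (adjusted p = 0.347) and for Fos 0.22 ± 0.20 (adjusted p = 0.383). Hypoxia genes were lower in both, with medians of -0.30 in the ko and -0.55 in the wild type, where Bnip3 differed by -2.99. Of these 35 genes the test of the difference called 25 higher and 4 lower (median 0.50).

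**Figure D5:**
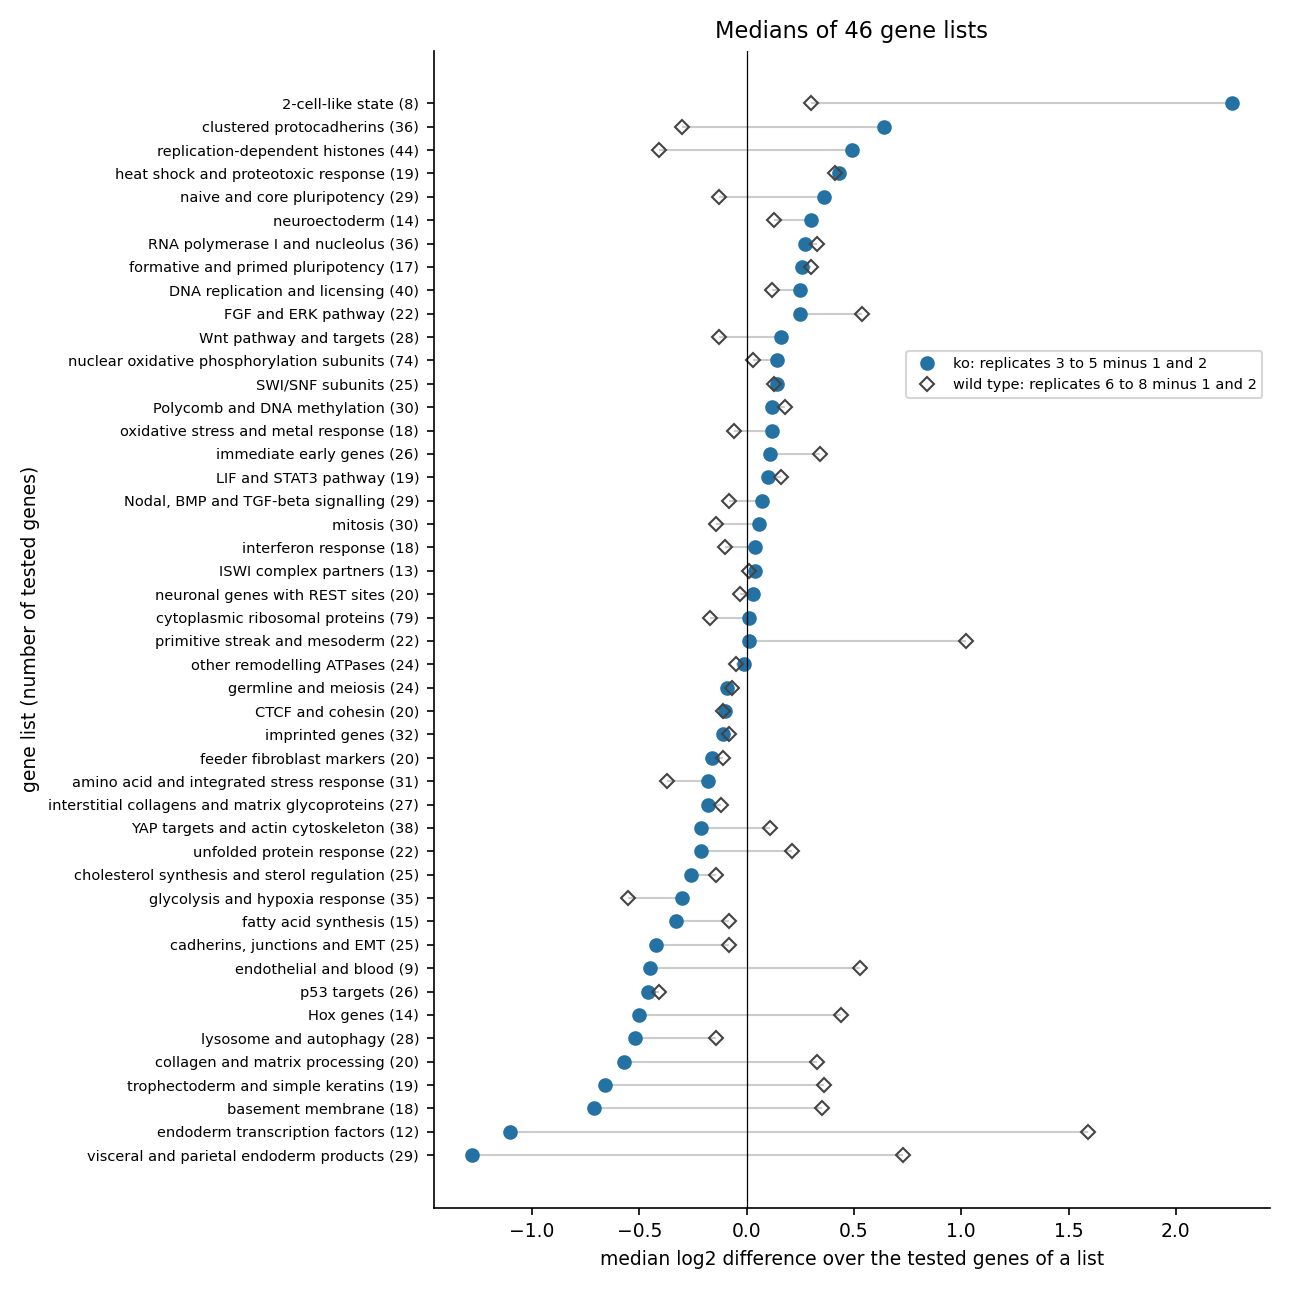
Median log2 difference over the tested genes of each of 46 gene lists, for the ko sets (filled circles) and the wild-type sets (open diamonds), with the number of tested genes in brackets. Endoderm factors lie at -1.10 in the ko and 1.59 in the wild type, while the p53 list lies at -0.46 and -0.41. Most genes of the 2-cell-like list were tested only because the trio was high.

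By size, the lowest ko minus wild-type values among genes at 5 CPM or more in the higher ko set were those of Sprr2a1 (-5.04 ± 0.36), Aqp8 (-4.62 ± 0.22), a water channel, Vnn1 (-4.42 ± 0.36), Klb (-4.07 ± 0.14), the FGF co-receptor beta-Klotho, Ihh (-4.02 ± 0.27), a hedgehog ligand of visceral endoderm, Cubn (-4.00 ± 0.11), the endocytic receptor cubilin, Pik3ap1 (-3.94 ± 0.29) and Spock1 (-3.93 ± 0.29). Klb, an example, stood at 35.5 and 38.5 CPM in the pair and 9.83, 10.2 and 8.48 CPM in the trio, and Cubn at 231 and 252 CPM in the pair and 127, 111 and 109 CPM in the trio, against wild-type differences of 2.11 and 2.94. The highest values were those of Klhdc7a (2.74 ± 0.27), Ndufa4l2 (2.73 ± 0.21), A2m (2.71 ± 0.15), Myo1f (2.57 ± 0.16), Crtac1 (2.51 ± 0.21), Pax6 (2.50 ± 0.19), Trh (2.39 ± 0.07) and Trim17 (2.37 ± 0.20). Ndufa4l2, a hypoxia gene, fell in the ko (-1.51 ± 0.11) and by more in the wild type (-4.21), and A2m, a protease inhibitor, likewise (-0.73 ± 0.11 and -3.41). With wild-type replicates 3 to 5 in place of 6 to 8, Ndufa4l2, A2m, Bnip3 and Ddit4 changed direction in this test, to -1.74, -0.34, -1.76 and -0.79, and none of those 4 values was called. Klhdc7a and Crtac1 were not called there either. Trh, the thyrotropin-releasing hormone gene, rose from 30.4 and 31.7 CPM to 76.2, 78.1 and 79.6 CPM between the ko sets while the wild-type difference was -1.06.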

How the data were processed

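Polyadenylated RNA of mouse ES cells was sequenced from 18 samples, extracted with RNeasy columns and made into TruSeq stranded mRNA libraries, per the labels' protocols. The authors deposited raw read counts per gene, with the exonic bases of each gene. Reads were handled with bcl2fastq 2.17 and STAR (version not given) against mm10, per the submitters' processing notes. How reads were assigned to genes, and with which annotation and strand rule, was not given in the sources used here, and overlapping, antisense and near-identical genes are therefore uncertain.

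The table lists 24116 genes, of which 3581 are at 0 in all libraries and 9 lack a symbol. Genes with low counts were removed with filterByExpr (count minimum 10), libraries were scaled by TMM, and edgeR 4.0.16 (limma 3.58.1, R 4.3.3) fitted quasi-likelihood models with two-sided tests and Benjamini-Hochberg adjustment over all tested genes. The ko sets were compared in a fit of the 5 ko libraries, and the test against wild type used 1 fit of 10 libraries. CPM values use TMM-scaled totals of all 18 libraries, and RPKM divides them by exonic kilobases. Coordinates of 14120 tested genes came from RefSeq. The fits were tested on simulated data. Limits that a count of 0 allows stand for 3 counts and cover counting error only.

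Groups came from the sample titles. Wild-type replicates 1, 2 and 6 to 8 were set against the ko sets by their totals. The sets, the 46 gene lists and their members were chosen with earlier results of these data known, and lists are described by counts and medians without a test. Genes named were the 15 largest rises and 15 largest falls (adjusted p under 0.05, at least 5 CPM in the higher set, no overlap), up to 8 of each list at 1 CPM or more, the 8 highest and 8 lowest in the test against wild type, and the markers used to check cell types. The Y-linked genes, and the genes whose promoters are printed, were chosen after their values were seen. Some genes that meet this rule are not reported here. Alternatives were DESeq2 1.42.0, other scalings and filters, thinned libraries, other samples in the fit and leaving out each ko replicate.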

Additional observations from a re-analysis of the deposited data

Results flagged for a closer look

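For 57 genes of the report the difference between the ko sets was set against the difference between wild-type replicates 6 to 8 and 1 to 2. For 55 of them the difference of the differences was itself called in edgeR's quasi-likelihood test (adjusted p under 0.05), and each value below is the ko difference minus the wild-type difference on the log2 scale. Over all 211 genes named in the report, 184 had a called difference of this kind. Over all tested genes this test called 26.1% higher and 22.9% lower. Many named genes were chosen for the size of their differences, some of them in this same test, so these counts are no result about the genes. The 2 that did not among the 57 were Fos and Nolc1. No group here had the 4 samples needed to look for a single library that stands apart.

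The endoderm factors gave Gata6 (-3.49), Sox17 (-3.37), Gata4 (-3.22) and Foxa2 (-3.02), and the receptor and matrix genes of that lineage Pdgfra (-3.66) and Sparc (-2.20). The largest values include, chosen for their size in this test, Cubn (-4.00), Ihh (-4.02), Klb (-4.07), Aqp8 (-4.62) and Vnn1 (-4.42). Matrix and collagen genes gave Col4a1 (-3.01), Lama1 (-2.98), Lamc1 (-1.86), Serpinh1 (-2.68), P4ha1 (-1.12) and Spock1 (-3.93). In these genes the trio was lower than the pair and the wild-type sets went the other way or fell by less. Epithelial, vessel and lysosomal genes gave Krt18 (-1.49), Sprr2a1 (-5.04), Cdh5 (-3.06), Flt1 (-1.83), F3 (-2.50) and Ctsl (-1.98), and the YAP targets Ctgf (-2.30) and Cyr61 (-1.56). Among single genes with negative values were H19 (-2.56), Igf2 (-2.11), Rhox5 (-1.73), Smarca2 (-2.62), Pik3ap1 (-3.94), Eif2s3y (-2.25) and Cdkn1a (-0.31).

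Positive values were found for the pluripotency genes Nanog (0.81), Esrrb (0.80), Gdf3 (0.99) and Tcl1 (1.58) and for the 2-cell-like genes Zscan4d (3.43) and Zscan4c (2.08), both tested only because of their level in the trio. The hypoxia genes Ndufa4l2 (2.73), Bnip3 (0.84) and Ddit4 (1.72) and A2m (2.71) were positive too, since they fell less between the ko sets than between these wild-type sets. Those 4 turned negative and were not called with wild-type replicates 3 to 5 in place of 6 to 8 (-1.74, -1.76, -0.79 and -0.34 in this order). Single neural and hormone genes gave Pax6 (2.50), Tubb3 (1.55) and Trh (2.39), whereas the neuroectoderm list as a whole had 6 genes higher and 4 lower of 14. The rest were Trim17 (2.37), Klhdc7a (2.74), Myo1f (2.57), Crtac1 (2.51), Hist3h2a (2.39), Dusp27 (2.06), Egr1 (1.44), Smarca1 (0.61), Hspa8 (0.42) and Mcm5 (0.34).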

How the results depend on the processing

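With 3 and 2 libraries a side, whose spread may be technical, the direction and call held for most named genes: over the settings tried for the 211 differences between ko sets, 2505 values kept both, 7 lost the call, and Smarca5, called in none, changed sign without ko replicate 2 or 3. The lost calls were Egln3 (-0.87, adjusted p = 0.121), Ddit4 (-0.85, adjusted p = 0.0625) and A2m (-0.70, adjusted p = 0.161) in 1 edgeR fit of all 18 libraries, and Uty with DESeq2 (-1.60, adjusted p = 0.0602) and in edgeR without ko replicate 4 (-1.20, adjusted p = 0.058), Zic1 without ko replicate 2 (-0.85) and En1 with DESeq2 (-1.12). DESeq2's Wald test called 3632 genes higher and 3645 lower. A fit of all 18 libraries called 3507 and 3025, and leaving out 1 ko replicate 3980 to 4195 and 4075 to 4231. Of the 1061 genes called at 2-fold or more, between 958 (DESeq2) and 1061 were called the same way under settings with the same genes tested. A count minimum of 50 left 129 genes higher and 518 lower by 2-fold or more, in place of 269 and 792, since fewer genes were tested, and all 641 of the 1061 tested there were called the same way.

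The test against wild type depended on which wild-type libraries were used. With wild-type replicates 3 to 5 in place of 6 to 8, 2251 genes were higher (3852 as reported) and 306 higher by 2-fold or more (646), and a count minimum of 50 left 381 of the latter. Under that choice Ndufa4l2 (-1.74), A2m (-0.34), Bnip3 (-1.76) and Ddit4 (-0.79) changed direction, Klhdc7a, Crtac1 and Hist3h2a were no longer called, and Fos became called. The cause was not tested. Of the other values of the 57 genes, 676 kept call and direction. Of the list medians, 95 of 322 recomputed values moved by more than the spread within the sets, among them those of the Hox and Wnt lists. No paired analysis was possible because the 2 sets of ko libraries compared share no replicate number. The difference between the sets rests on 1 pair and 1 trio, and low genes such as the Zscan4 copies are limited by depth.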
